A study of Homo sapiens with 12 samples.

Results

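The HOX cluster genes were followed in A673 cells after transcription was blocked with actinomycin D. A673 is an established Ewing sarcoma cell line, and the samples carry the label shA673-1c, which does not say what the shRNA in the line targets. The members were all gene symbols of the count table made of HOX, a cluster letter from A to D and a number, which gave 39 genes of the 26334 symbols listed. Cells received 5 µM actinomycin D for 0, 1, 2 or 4 h, with 3 biological replicates at each time and 12 poly(A)-selected, stranded RNA-Seq libraries in all. All groups shared the same line and the same medium with blasticidin and zeocin, no group was left without the drug for the length of the course, and all cells came from 1 line.

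HOX genes encode homeodomain transcription factors that set position along the body axis and the limbs. In humans they lie in 4 clusters, HOXA on chromosome 7, HOXB on chromosome 17, HOXC on chromosome 12 and HOXD on chromosome 2, and genes with the same number in different clusters (paralogues) descend from a common ancestor. Low numbers mark anterior genes and high numbers posterior genes, and Ewing sarcoma cells are known for transcribing posterior HOXD genes. Actinomycin D binds DNA and stops RNA synthesis, so that the mRNA made before the drug is what remains to be counted. Because each library was scaled to its own counts, a fall here is a fall relative to the rest of the mRNA, and the number of cells and the RNA per cell cannot be told apart in these bulk samples.

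Total counts ranged from 9147018 to 11194705 per library, which limits the precision for low genes. The scaling factors (TMM, edgeR's correction for the make-up of a library) ranged from 0.924 to 1.05, and all 3 at 4 h were below all 9 at earlier times. Short-lived mRNAs moved in the direction the time labels give: the log2 slope per hour was −1.12 ± 0.10 (SE, n = 12 libraries) for MYC, −0.89 ± 0.10 for JUN and −0.84 ± 0.10 for IER2. Of the 15 Ewing sarcoma genes examined, 14 had counts, among them FLI1, the 3′ partner of the usual fusion, with a median of 80.5 CPM (counts per 1000000 of the library's scaled total) at 0 h, and NR0B1 with 37.4 CPM. CD99, a surface protein used in diagnosis, was listed at 0 in every library. None of the 10 endothelial and leukocyte genes exceeded 9 counts in a library. The epithelial genes were mixed: EPCAM, CDH1 and KRT5 had at most 6, 1 and 1 counts in a library. The keratin genes KRT8 and KRT18 stood at medians of 11.8 and 319 CPM at 0 h.

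Sequence elements in the 3′ UTR that are known to bind decay factors or miRNAs were read from the Ensembl canonical transcripts of GENCODE version 44 (GRCh38), in which all 39 genes were found. Searched on the mRNA strand were AUUUA and its extended form UUAUUUAUU, which contains AUUUA, both bound by AU-rich element proteins. Also searched were UGUANAUA, bound by Pumilio proteins, and the matches to the seeds of miR-10 (ACAGGGU) and miR-196 (ACUACCU), miRNAs that are encoded inside the HOX clusters. HOXD13, the most counted gene with a large fall, held 5 AUUUA sites, shown first with the motif in capitals. HOXB2 and HOXC4 were the 2 tested members with the extended form.
HOXD13 site 1: gaauauguAUUUAauuccccc
HOXD13 site 2: ccauucugAUUUAaggguuuu
HOXD13 site 3: augcagacAUUUAaauggcug
HOXD13 site 4: ugcugcauAUUUAuacaauug
HOXD13 site 5: cuucagacAUUUAaaaaucac
HOXB2 extended site: acuguagaUUAUUUAUUaaaauucu
HOXC4 extended site: uuggggggUUAUUUAUUuuuuaaga

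The HOXD13 sites lie on the plus strand of GRCh38 at chr2:176094801-176094821, chr2:176095066-176095086, chr2:176095489-176095509, chr2:176095800-176095820 and chr2:176095873-176095893. The HOXB2 site is at chr17:48542732-48542756 on the minus strand and the HOXC4 site at chr12:54055484-54055508 on the plus strand. The HOXC8 3′ UTR holds 3 matches to the miR-196 seed, and HOXC8 is a known target of that miRNA, so these sites are set below the mature miRNAs (RefSeq, GRCh38.p14), with bases 2 to 8 of each miRNA and the matching bases of each site in capitals. Both miR-196 forms carry the same seed.
hsa-miR-196a-5p: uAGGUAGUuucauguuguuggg
hsa-miR-196b-5p: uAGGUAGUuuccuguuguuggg
HOXC8 site 1: uagaaugacacucacaacucuaACUACCUg
HOXC8 site 2: aauaauaauaaaucuuuaacauACUACCUa
HOXC8 site 3: gaaaccuccagcguauuuuaucACUACCUa

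The 3 HOXC8 sites are on the plus strand at chr12:54011487-54011516, chr12:54012223-54012252 and chr12:54012363-54012392. The miRNAs themselves were not measured, since poly(A) libraries of mRNA do not hold mature miRNAs.

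Which clusters were expressed was read at 0 h. Transcripts of the HOXD cluster dominated. The 9 HOXD genes summed to 258 ± 10.3 CPM (SD, n = 3), which was 70.5% ± 0.566 of all HOX counts. HOXC followed with 66.7 ± 3.17 CPM (18.2% ± 0.783), HOXB with 35.2 ± 4.94 CPM (9.63% ± 1.28) and HOXA with 5.79 ± 0.828 CPM (1.59% ± 0.281). Divided by transcript length the shares were 71.1%, 18.3%, 9.25% and 1.34%, so that the order did not rest on gene length. In CPM, 21 of the 39 genes averaged at least 1 CPM, namely 7 of 9 in HOXD, 7 of 9 in HOXC, 5 of 10 in HOXB and 2 of 11 in HOXA.

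**Figure D1:**
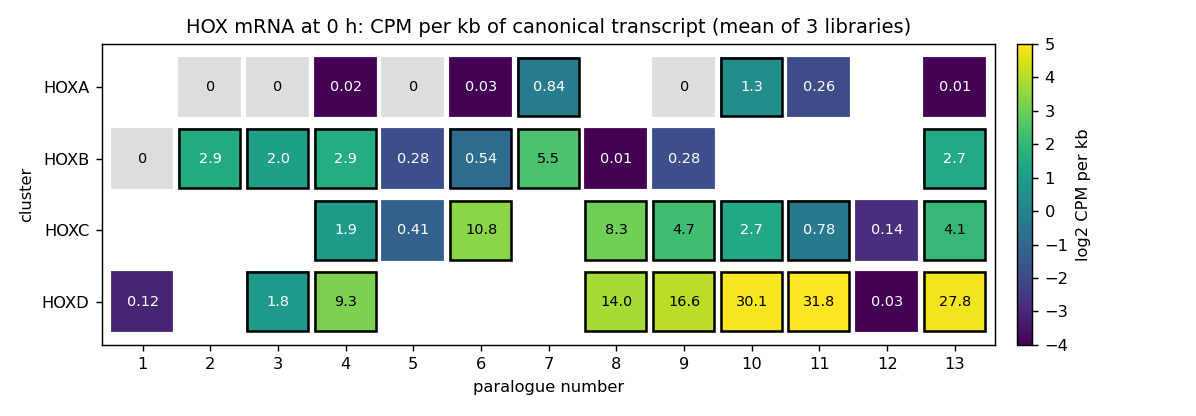
Level of HOX genes at 0 h, in CPM per kb of the canonical transcript (mean of 3 libraries), by cluster (rows) and paralogue number (columns). Colour is the log2 of the level, grey cells had no count at 0 h, empty positions have no gene or are not shown, and black frames mark the 22 genes that were tested over time. HOXD11, HOXD10 and HOXD13 are the brightest cells at 31.8, 30.1 and 27.8 CPM per kb, and most of the HOXA row is grey or dark.

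The 3 highest genes per length were posterior HOXD genes, whose proteins pattern the distal limb and the urogenital tract. HOXD11 stood at 31.8 ± 2.64 CPM per kb (SD, n = 3), HOXD10 at 30.1 ± 2.45 and HOXD13 at 27.8 ± 1.14. Their ranges overlapped, so the order among them was not resolved, and with the length of all annotated exons in place of the canonical transcript HOXD13 came first. Together these 3 genes gave 47.9% ± 0.287 of all HOX counts at 0 h. HOXD9 (16.6 ± 1.50) and HOXD8 (14.0 ± 0.571) came next, without overlap with each other or with HOXD13.

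Outside HOXD the highest genes per length were HOXC6 at 10.8 ± 0.307 CPM per kb and HOXC8 at 8.26 ± 1.72, with HOXD4 between them at 9.33 ± 2.02. The range of HOXD4 overlapped those of HOXC6 and HOXC8, which did not overlap each other. On the length of all annotated exons HOXC6 moved from rank 6 to rank 8. The highest HOXB gene was HOXB7 at 5.51 ± 1.32 and the highest HOXA gene was HOXA10 at 1.30 ± 0.286. The 2 posterior genes HOXC13 (4.09 ± 0.174) and HOXB13 (2.71 ± 0.326) were both below HOXD13, their paralogue, in every library. The lowest tested genes were HOXA7 at 0.839, HOXC11 at 0.780 and HOXB6 at 0.540 CPM per kb.

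No transcript was detected for 5 members, 4 of them in HOXA, and 3 counts in the smallest 0 h library would correspond to 0.304 CPM, so lower levels could not be seen. Another 6 members, HOXA4, HOXA5, HOXA6, HOXA13, HOXB8 and HOXD12, had 1 or 2 counts at most in any library. HOXA11, HOXB5, HOXB9, HOXC5, HOXC12 and HOXD1 reached at most 10 counts. These 17 genes fell below the mean of 10 counts over the 12 libraries that was set for testing, and 22 members passed it. Most of HOXA was thus at or near 0, while the 2 low HOXD genes, HOXD12 and HOXD1, lay in a cluster whose other 7 members were all above 1 CPM. HOXD12 had 0 or 1 count in each 0 h library although its neighbours HOXD11 and HOXD13 had up to 624 and 742 counts in a 0 h library.

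How the expressed genes changed over time was tested with 1 straight line per gene in edgeR (quasi-likelihood test, Benjamini-Hochberg adjustment over all 12032 genes tested). All 22 tested HOX genes had a slope below 0, and 15 of them (68.2%) fell at an adjusted p below 0.05, against 32.1% of all genes tested. No HOX gene rose in edgeR, none at an unadjusted p below 0.05 and none in DESeq2's Wald test, against 30.7% of all genes. The median slope was −0.148 log2 units per hour over the HOX genes and 0.00929 over all genes. Summed over the 39 genes, HOX counts went from 366 ± 12.4 CPM at 0 h to 336 ± 1.83 at 1 h, 271 ± 10.9 at 2 h and 226 ± 8.59 at 4 h (SD, n = 3 each), which left 61.9%. Scaling the libraries to GAPDH plus ACTB, which had slopes of 0.15 ± 0.01 and 0.12 ± 0.02 (SE) with TMM, moved the median slope of all genes by −0.138. HOX genes then had a median of −0.285 against −0.128 for all genes, and 21 of 22 fell, against 7729 of all 12032 genes. The difference of −0.157 was the same with TMM. Rescaling shifts all slopes almost alike, so this agreement was fixed in advance and is no check.

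**Figure D2:**
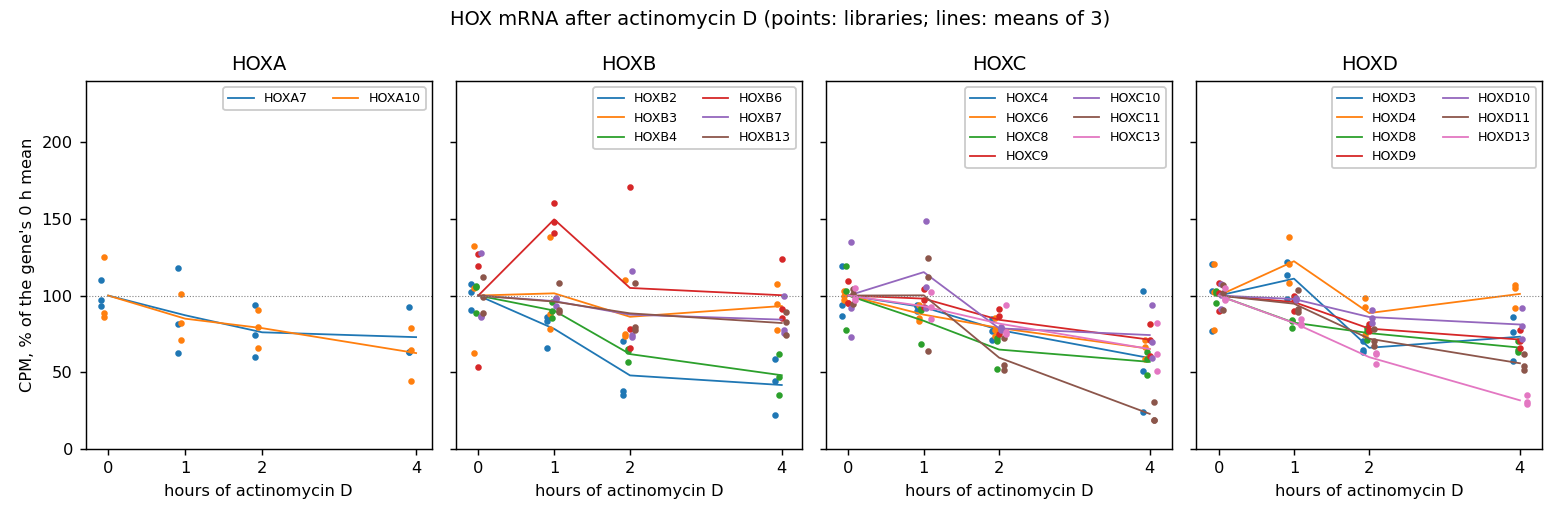
CPM of the 22 tested HOX genes as a percentage of each gene's 0 h mean (vertical axis) against hours of actinomycin D (horizontal axis), 1 panel per cluster. Points are libraries and lines join the means of 3. HOXC11, HOXD13, HOXB2 and HOXB4 end lowest, at 22.8%, 31.6%, 41.6% and 48.0%, while HOXD4 and HOXB6 end near their starting level.

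HOXD13 showed the clearest loss. Its libraries read 65.3, 70.3 and 65.8 CPM at 0 h, 56.8, 54.0 and 54.6 at 1 h, 41.4, 37.2 and 41.9 at 2 h and 23.5, 20.6 and 19.6 at 4 h. No 2 time points overlapped. The slope was −0.42 ± 0.02 log2 units per hour (SE, edgeR adjusted p = 9.20e-10), which corresponds to a relative level that halved every 2.38 h, and 31.6% was left at 4 h. Between 0 and 1 h the log2 change was −0.28 ± 0.07, which missed the threshold in edgeR (adjusted p = 0.0583) and passed with the replicate number as a block (edgeR adjusted p = 0.000818). It fell by 0.46 ± 0.08 from 1 to 2 h (adjusted p = 0.000858, edgeR) and by 0.92 ± 0.08 from 2 to 4 h (adjusted p = 4.28e-06, edgeR). HOXD13 occupies chr2:176092721-176095944 and has 2 exons.

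HOXD11 fell more slowly. It read 58.1, 49.3 and 55.4 CPM at 0 h, 49.7, 56.2 and 48.3 at 1 h, 42.5, 38.1 and 36.3 at 2 h and 33.6, 27.8 and 29.4 at 4 h. The 0 and 1 h libraries overlapped, and those at 2 and 4 h were all below them. The slope was −0.22 ± 0.03 (SE, edgeR adjusted p = 1.12e-06), halving every 4.46 h, with 55.8% left at 4 h. In the annotation 26.5% of HOXD11's exon bases also belong to HOXD10 transcripts, and how the authors assigned reads in shared exons is not stated, so both genes' counts are uncertain to that extent.

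HOXD10, the neighbour of HOXD11 on the other side from HOXD13, was the slowest of the genes that fell. Its values were 57.9, 49.1 and 54.0 CPM at 0 h and 43.0, 38.3 and 49.4 at 4 h, with 52.0 to 52.9 at 1 h and 43.9 to 48.6 at 2 h. The 4 h library of replicate 3 was above the lowest 0 h library, though each replicate was lower at 4 h than at 0 h. The slope was −0.08 ± 0.02 (SE, edgeR adjusted p = 0.00377) and 81.1% was left at 4 h. Without replicate 1 this fall missed the threshold (edgeR adjusted p = 0.0638). The joint share of the 3 most abundant HOX mRNAs in HOX counts was 42.0% ± 1.70 at 4 h (SD, n = 3).

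The other HOXD genes with many counts fell moderately. HOXD8 read 34.9, 37.7 and 37.2 CPM at 0 h and 23.7, 25.7 and 23.1 at 4 h, with a slope of −0.14 ± 0.02 (SE, edgeR adjusted p = 2.20e-05). HOXD9 read 33.6, 28.0 and 31.6 CPM at 0 h and 24.0, 21.9 and 20.5 at 4 h, with a slope of −0.13 ± 0.02 (SE, edgeR adjusted p = 0.000171). In both genes the groups at 0 and 4 h did not overlap. Of HOXD8's exon bases, 24.5% are overlapped on the other strand by HOXD-AS2, a noncoding gene whose level rose slightly.

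The 2 anterior HOXD genes that were tested, HOXD3 and HOXD4, had a higher mean at 1 h than at 0 h. The same was seen in HOXB3, HOXB6, HOXC10 and HOXC11, and no such rise passed in edgeR. HOXD4 read 12.8, 8.19 and 10.8 CPM at 0 h, 14.6, 11.5 and 12.8 at 1 h, 9.82, 7.89 and 10.4 at 2 h and 9.70, 11.1 and 11.3 at 4 h. Its mean was highest at 1 h, and 101% was left at 4 h. The slope was −0.03 ± 0.05 (SE, edgeR adjusted p = 0.636), and it turned to 0.03 without replicate 1. Its libraries at 0 and 4 h overlapped. HOXD3 read 5.30, 4.53 and 3.37 CPM at 0 h, 5.36, 4.32 and 4.99 at 1 h, 2.78, 2.83 and 3.09 at 2 h and 3.79, 2.51 and 3.36 at 4 h, so that all 2 h libraries were below all earlier ones and the 4 h libraries overlapped those at 2 h. HOXD3 fell between 1 and 2 h (log2 change −0.75 ± 0.21, SE, edgeR adjusted p = 0.0266). No HOX gene departed from a straight line in edgeR at an adjusted p below 0.05, against 2.7% of all genes. At an unadjusted p below 0.05, 2 did, HOXD3 and HOXD4, and the share of all genes at that threshold was not computed. With the replicate number as a block HOXD4 passed (edgeR adjusted p = 0.0240). The slope of HOXD3 over the whole course was −0.15 ± 0.06 (SE, edgeR adjusted p = 0.0421), and it missed the threshold without replicate 1 or replicate 2.

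**Figure D3:**
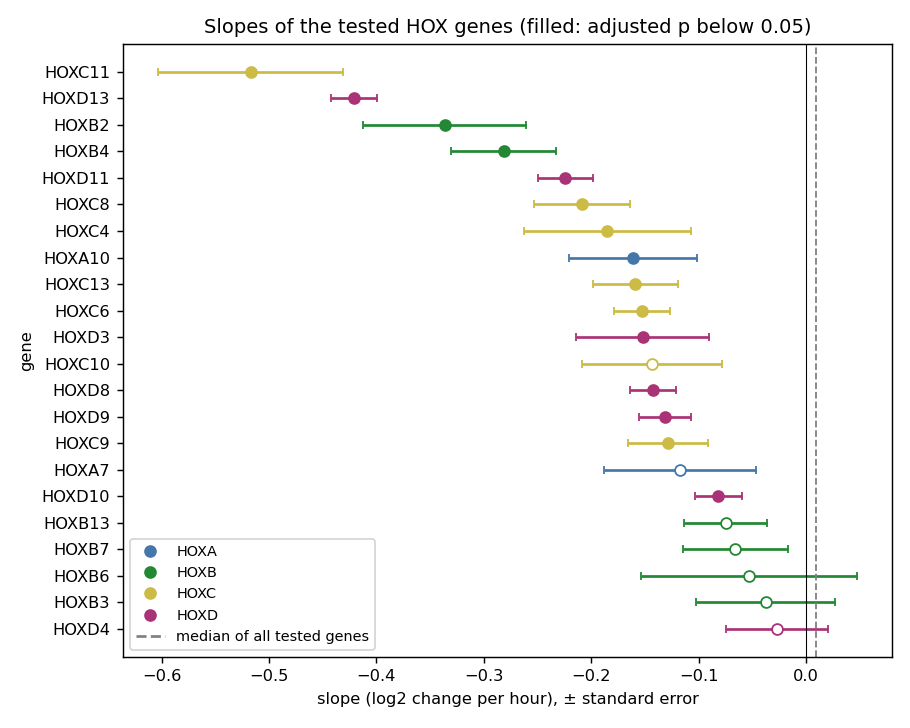
Slope of each tested HOX gene in log2 units per hour (horizontal axis) with its standard error, sorted from the steepest fall at the top and coloured by cluster. Filled points had an adjusted p below 0.05 and the dashed line is the median of all tested genes at 0.00929. All 22 points lie left of 0, from −0.52 for HOXC11 to −0.03 for HOXD4.

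In HOXC, 6 of 7 tested genes fell, against 32.1% of all genes tested. HOXC11, a posterior gene, had the steepest slope of all HOX genes but few counts, from 4 to 35 in a library. It read 2.65, 2.41 and 2.57 CPM at 0 h, 1.63, 2.84 and 3.17 at 1 h, 1.39, 1.31 and 1.84 at 2 h and 0.473, 0.483 and 0.783 at 4 h. The 4 h libraries were below all others. The slope was −0.52 ± 0.09 (SE, edgeR adjusted p = 6.61e-05), halving every 1.93 h, and over 0, 1 and 2 h alone it was −0.33 (edgeR adjusted p = 0.110). From 2 to 4 h HOXC11 fell by 1.37 ± 0.37 on the log2 scale (SE, edgeR adjusted p = 0.0130).

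HOXC8 read 23.8, 20.6 and 15.5 CPM at 0 h, 18.1, 18.3 and 13.6 at 1 h, 14.0, 14.5 and 10.3 at 2 h and 12.7, 11.7 and 9.63 at 4 h. Replicate 3 was the lowest at each time, and every 4 h library was below every 0 h library. The slope was −0.21 ± 0.04 (SE, edgeR adjusted p = 0.000620). HOXC13, a gene of hair and nail formation, read 10.1, 9.35 and 9.49 CPM at 0 h and 7.93, 5.99 and 4.92 at 4 h, with a slope of −0.16 ± 0.04 (SE, edgeR adjusted p = 0.00211). These groups did not overlap either.

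HOXC6 read 17.9, 18.4 and 17.4 CPM at 0 h and 11.8, 10.5 and 12.6 at 4 h (slope −0.15 ± 0.03, SE, edgeR adjusted p = 7.57e-05). HOXC9 read 7.66, 6.65 and 6.65 CPM at 0 h and 4.97, 5.70 and 4.25 at 4 h (slope −0.13 ± 0.04, SE, edgeR adjusted p = 0.00666), and missed the threshold without replicate 1. Both genes had 4 h libraries below all 0 h libraries. HOXC4 varied most at 4 h, at 1.66, 3.38 and 0.783 CPM against 2.85, 3.08 and 3.90 at 0 h. Its slope of −0.19 ± 0.08 (SE, edgeR adjusted p = 0.0472) was −0.06 without replicate 3 (edgeR adjusted p = 0.478), so this fall rested on that replicate. HOXC10 had a slope of −0.14 ± 0.07 (SE, edgeR adjusted p = 0.0663), and with the replicate block it passed the threshold (edgeR adjusted p = 0.0231).

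In HOXB, 2 of 6 tested genes fell, against 32.1% of all genes tested. Both, HOXB2 and HOXB4, are anterior genes that act in hindbrain and blood cell development. HOXB2 read 4.91, 4.34 and 5.15 CPM at 0 h, 3.16, 4.12 and 3.99 at 1 h, 1.69, 1.82 and 3.38 at 2 h and 1.07, 2.13 and 2.80 at 4 h. Its libraries at 1, 2 and 4 h were all below those at 0 h. The slope was −0.34 ± 0.08 (SE, edgeR adjusted p = 0.000984), with 41.6% left at 4 h. HOXB4 read 5.11, 6.07 and 6.12 CPM at 0 h, 5.17, 4.90 and 5.53 at 1 h, 3.27, 3.74 and 3.67 at 2 h and 2.01, 2.71 and 3.58 at 4 h. Its 0 and 1 h libraries overlapped and those at 2 and 4 h were lower. The slope was −0.28 ± 0.05 (SE, edgeR adjusted p = 9.78e-05), with 48.0% left.

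HOXB3 lies next to HOXB2, and its values did not move beyond the spread between replicates. It read 7.07, 4.24 and 8.96 CPM at 0 h and 6.39, 5.22 and 7.28 at 4 h (slope −0.04 ± 0.06, SE, edgeR adjusted p = 0.631). Its 0 h libraries spread more than 2-fold, so a fall of the size of HOXD10's lay within its error. HOXB13 read 7.27, 9.25 and 8.16 CPM at 0 h and 7.34, 6.09 and 6.83 at 4 h (slope −0.07 ± 0.04, SE, edgeR adjusted p = 0.104), and HOXB7 went from 7.51 ± 1.80 to 6.33 ± 1.02 CPM (SD, n = 3). HOXB6, with 5 to 16 counts, read 1.08, 0.482 and 1.15 CPM at 0 h, 1.34, 1.28 and 1.45 at 1 h and 0.828, 0.773 and 1.12 at 4 h. All its 1 h libraries were above those at 0 h, but the log2 difference of 0.57 ± 0.38 (SE) did not pass (edgeR adjusted p = 0.582).

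In HOXA only HOXA7 and HOXA10 could be tested. HOXA10 read 2.85, 4.14 and 2.93 CPM at 0 h and 2.13, 2.61 and 1.46 at 4 h, without overlap. The slope was −0.16 ± 0.06 (SE, edgeR adjusted p = 0.0269), and it missed the threshold when any 1 replicate was left out (edgeR adjusted p from 0.0576 to 0.101). HOXA7 read 1.57, 1.64 and 1.86 CPM at 0 h and 1.07, 1.06 and 1.57 at 4 h (slope −0.12 ± 0.07, SE, edgeR adjusted p = 0.159). Another transcript, HOXA-AS3, covers 74.8% of its exon bases on the opposite strand and had no count.

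Set against 0 h directly, 13 of the 22 genes (59.1%) were lower at 4 h in edgeR, against 31.6% of all genes, and none was higher, against 28.7%, nor was any at an unadjusted p below 0.05 or in DESeq2's Wald test. In 13 members every 4 h library was below every 0 h library, which was so for 33% of all genes tested. The course was then split into its 3 intervals. From 0 to 1 h no HOX gene passed in edgeR in either direction, against 2.24% lower and 0.349% higher among all genes. At an unadjusted p below 0.05 HOXD13 and HOXD8 were lower, and the share of all genes at that threshold was not computed. The HOX median was −0.07 on the log2 scale. From 1 to 2 h all 22 estimates were below 0, with a median of −0.27 against 0.01 over all genes. HOXD13, HOXD11, HOXD3 and HOXD9 passed, which is 18.2% against 12.5% lower and 3.76% higher among all genes. From 2 to 4 h HOXD13, HOXD11 and HOXC11 passed, which is 13.6% against 18.3% lower and 12% higher among all genes. A block for the replicate number, which removes what same-numbered libraries share, was then added, and more genes passed in each interval. From 0 to 1 h HOXD13, HOXD8 (edgeR adjusted p = 0.00507) and HOXC8 (edgeR adjusted p = 0.0428) were lower, 3 of 22 against 10.5% of all genes. From 1 to 2 h 11 of 22 were lower against 20.7%, the genes added being HOXB2, HOXB4, HOXC8, HOXC10, HOXC11, HOXD4 and HOXD10. From 2 to 4 h 5 were lower against 25.3%, HOXC6 and HOXD8 being added. No HOX gene was higher in any interval with the block. When 1 replicate was left out (without the block), 1 or 2 genes were lower from 1 to 2 h, where the share of all genes was not computed. These intervals share libraries (the 1 h libraries end the first and begin the second), so their estimates are not independent.

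Rates were then compared between genes. Among the 22 genes there are 18 pairs of neighbours within a cluster (genes below the count filter were skipped) and 15 pairs of paralogues. For each of these 33 pairs, chosen after the values had been seen, the log2 ratio of counts within a library (0.5 added to each count) was regressed on time. An exact two-sided permutation test over all 369600 arrangements of the libraries gave p, adjusted over the 33 pairs. The ratio of 2 genes in 1 library does not depend on how libraries are scaled.

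**Figure D4:**
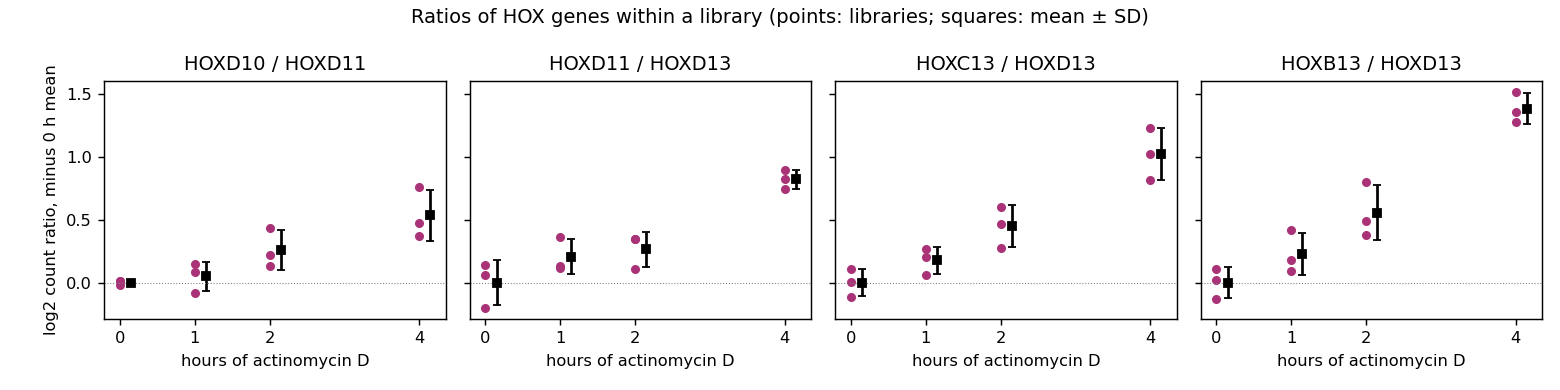
Log2 ratio of counts of 2 HOX genes in the same library, minus its mean at 0 h (vertical axis), against hours of actinomycin D (horizontal axis). Points are libraries and squares the mean ± SD of 3. In all 4 panels the ratio climbs as the second gene is lost faster, and at 4 h every library is above every 0 h library.

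Slopes differed in 10 of the 33 pairs. The share among pairs drawn from all genes was not computed, and among all genes tested 32.1% fell and 30.7% rose. From HOXD10 to HOXD11 to HOXD13 the loss became faster, with HOXD12 untested and HOXD10 and HOXD11 sharing exon bases. The log2 HOXD10 to HOXD11 ratio rose by 0.14 ± 0.03 per hour (SE, exact permutation test, adjusted p = 0.00199), and the HOXD11 to HOXD13 ratio by 0.20 ± 0.03 (exact permutation test, adjusted p = 0.00173). HOXD11 began slightly below HOXD13 in counts (log2 ratio −0.31 ± 0.18, SD, n = 3) and ended above it (0.51 ± 0.08). HOXD8 and HOXD9, the next genes towards the anterior end, differed by −0.01 ± 0.03 per hour (SE, exact permutation test, adjusted p = 0.836). The order did not extend to HOXD9. The log2 HOXD9 to HOXD10 ratio changed by −0.05 ± 0.02 per hour, the other direction, without passing (exact permutation test, adjusted p = 0.132).

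Among paralogues, HOXD13 was lost faster than both of its counterparts. The HOXB13 to HOXD13 ratio rose by 0.35 ± 0.03 log2 units per hour (SE, exact permutation test, adjusted p = 0.000179) and the HOXC13 to HOXD13 ratio by 0.26 ± 0.03 (exact permutation test, adjusted p = 0.000179). HOXB13 and HOXC13 differed by 0.09 ± 0.05 per hour (exact permutation test, adjusted p = 0.225), and with arrangements kept within replicates this difference passed as well (adjusted p = 0.0441, exact permutation test). HOXB4 was lost faster than HOXD4, by 0.26 ± 0.06 per hour (exact permutation test, adjusted p = 0.00366). HOXC9 and HOXD9 differed by −0.0012 ± 0.03 log2 units per hour (exact permutation test, adjusted p = 0.997). These pairs are not independent, since HOXD13 stands in 3 of them.

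The remaining 5 pairs involved HOXC11, HOXB2 or HOXB4, whose means were 18.7, 33.2 and 44.5 counts per library. HOXC11 was lost faster than its neighbours HOXC10 and HOXC13 and its paralogue HOXD11, by 0.42 ± 0.07, 0.38 ± 0.09 and 0.32 ± 0.07 log2 units per hour (SE, exact permutation test, adjusted p = 0.00334, 0.00872 and 0.00707). HOXB2 and HOXB4 were each lost faster than HOXB3, which lies between them, by 0.32 ± 0.09 and 0.26 ± 0.07 (exact permutation test, adjusted p = 0.00872 and 0.0114). None of these 5 differences passed without replicate 1, where 5 pairs remained: HOXD10 with HOXD11, HOXD11 with HOXD13, HOXB4 with HOXD4, HOXB13 with HOXD13 and HOXC13 with HOXD13. Without replicate 2 these and HOXB2 with HOXB3 remained.

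The 3′ UTRs of the tested genes ran from 284 bases in HOXD4 to 2230 in HOXC11. Their median was 847 bases against 1424 in coding genes, and the shares below were not adjusted for length. AUUUA was present in 18 of 22 (81.8%) against 75.3% of 10789 tested coding genes, at a median of 2.00 per kb against 1.79. The 4 genes without it were HOXB6, HOXC9, HOXD4 and HOXD9. HOXD13 and HOXD10, with slopes of −0.42 and −0.08, hold 5 and 4 sites. UUAUUUAUU was in 9.09% of the members against 10.1% of coding genes, and its 2 carriers, HOXB2 and HOXC4, both fell. The Pumilio motif was in HOXA10, HOXC9, HOXC11 and HOXC13 (18.2% against 31.8%), and all 4 fell. Among the carriers of either motif, HOXC4 missed the threshold without replicate 1 or 3, HOXA10 without any 1 replicate and HOXC9 without replicate 1. Of all 22 tested HOX genes 15 fell (68.2%), and a link between motif and fall was not tested. A miR-10 match was in HOXB3 alone (4.55% against 15.1%). A miR-196 match was in HOXA7, HOXB6, HOXB7, HOXB13 and HOXC8 (22.7% against 8.2%), of which only HOXC8 fell. Across the 22 genes, Spearman's rho with the slope was −0.26 for AUUUA sites per kb, −0.28 for 3′ UTR length, −0.21 for paralogue number and −0.05 for the level at 0 h, given as a description since genes of a cluster share exons, flanks and the same 12 libraries.

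Genes that act with HOX proteins or lie among them were read from lists. Of the 7 tested HOX cofactors, the TALE homeodomain proteins that bind DNA together with HOX proteins, 4 fell and 1 rose in edgeR. That is 57.1% falling, against 32.1% falling and 30.7% rising among all genes tested. MEIS2 (slope −0.48 ± 0.04, SE, edgeR adjusted p = 3.66e-08) and MEIS1 (−0.33 ± 0.03, adjusted p = 2.94e-07) fell most, PBX3 (−0.11) and PKNOX1 (−0.08) fell less, and MEIS3 rose (0.15 ± 0.05, adjusted p = 0.0183). PBX2 had a slope of −0.04 ± 0.03 (SE), which did not pass. The list median was −0.08.

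Of 32 noncoding genes of the clusters 23 were in the table and 3 could be tested. Of these 1 fell (33.3%, against 32.1% of all genes) and 1 rose. HOTAIR, transcribed from HOXC, fell (−0.16 ± 0.06, SE, edgeR adjusted p = 0.0470), HOXD-AS2 rose (0.12 ± 0.05, adjusted p = 0.0466) and HAGLR, from HOXD, had a slope of 0.02 ± 0.05 (adjusted p = 0.735). Of 13 tested genes that flank the clusters none fell and 5 rose in edgeR, against 32.1% falling and 30.7% rising among all genes. Among these 5 were CBX1 beside HOXB (0.07 ± 0.01, SE), HIBADH near HOXA (0.09 ± 0.03) and ATP5G3 near HOXD (0.11 ± 0.01). The other 2 were PRAC2 (0.15 ± 0.05) and ATP5G1 (0.18 ± 0.02), both on the HOXB side.

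**Figure D5:**
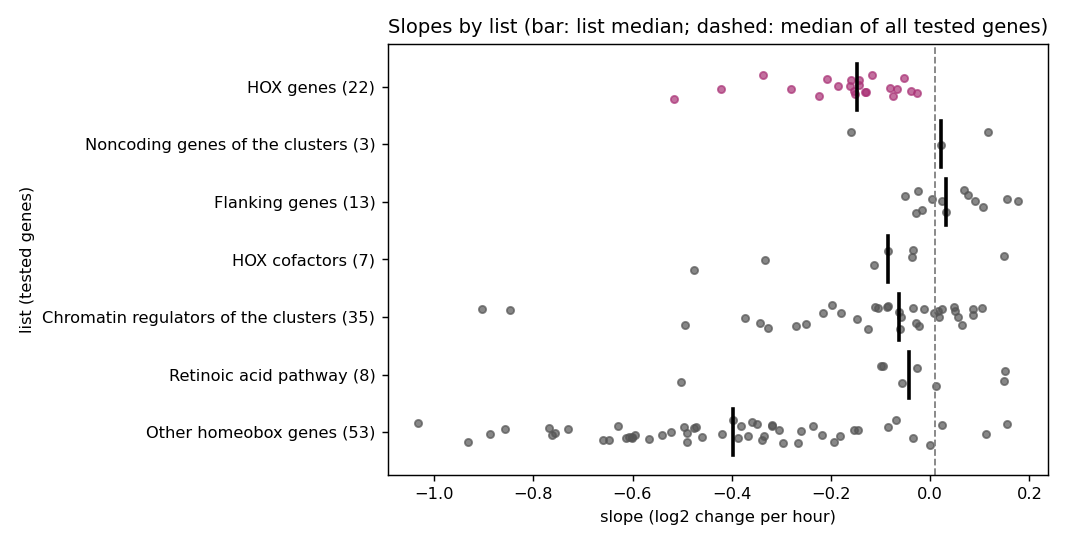
Slopes in log2 units per hour (horizontal axis) of the tested genes of 7 lists (vertical axis, number of genes in brackets), 1 point per gene with vertical scatter for legibility. Black bars are list medians and the dashed line is the median of all tested genes. The HOX genes have a median of −0.148, the flanking genes 0.03 and the other homeobox genes −0.40.

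Homeobox genes outside the clusters had steeper slopes than most HOX genes. Of 53 such genes tested, 46 fell (86.8%) and 1 rose in edgeR, against 32.1% falling and 30.7% rising among all genes. Their median slope was −0.40, steeper than 20 of the 22 HOX slopes. The steepest were IRX5 (−1.03 ± 0.10, SE), DLX2 (−0.93 ± 0.10), IRX3 (−0.89 ± 0.07) and DLX5 (−0.86 ± 0.12), all patterning factors, and POU6F1 rose (0.15 ± 0.04). No test of the difference between the lists was run.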

How the data were processed

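For the 12 libraries the authors deposited 1 table of raw read counts, whole numbers with a gene symbol in each line, and every column was matched to a sample by its title (0 unmatched). The submitters' processing notes name FastQC, STAR and hg19, without versions. The counting tool, the annotation, the use of strand and the handling of shared exons are not given in the sources used here. The quasi-likelihood functions glmQLFit and glmQLFTest of edgeR 4.0.16 (R 4.3.3) were applied with TMM factors to genes whose mean was 10 counts or more, with time entered in hours or as 4 groups. Standard errors came from the F statistic, and CPM values used TMM-scaled totals. Fits were tested on simulated data. The alternatives were other scalings (library totals, DESeq2 1.42.0 size factors, GAPDH plus ACTB), DESeq2's Wald test, other filters, a replicate block, left-out replicates and fewer time points. Pair tests used numpy 2.4.6.

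Same-numbered libraries deviated together (correlations of deviations from the time means from 0.323 to 0.633 over 18 pairs, against −0.419 to 0.0902 over 36 pairs of different number), so the numbers pair the samples. The main fits and the main permutation test leave this pairing out, and the results with it are those given for the replicate block. Replicates differed by more than counting noise (chi-square divided by its degrees of freedom was 3.20 to 8.65 over 12 pairs), and none was treated as a repeat. P-values measure the spread between wells labelled as biological replicates.

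Coordinates, lengths and 3′ UTRs are those of GENCODE version 44 on GRCh38, not of the hg19 build named in the notes, and miRNA sequences are from RefSeq. Every HOX gene was named or counted, with values at each time for the tested ones that the results turn on. From each list all genes that passed were named, or for lists with more than 8 the 4 steepest in each direction, apart from a few genes that are not reported here. The members and lists were chosen with earlier results of these data known.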

Additional observations from a re-analysis of the deposited data

How the results depend on the processing

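The number of falling HOX genes was 15 with TMM, 17 with library totals, 15 with DESeq2's size factors or Wald test, 14 without a count filter, 12 of 17 tested with a mean of at least 30 counts, 16 with the replicate block, 14 without the genes that share exons, 10 to 13 without 1 replicate and 13 over 1, 2 and 4 h. It was 8 over 0, 1 and 2 h alone, where fewer libraries and a shorter span enter. Among all 12032 genes, 3859 fell with TMM, 4702 with library totals, 3856 with DESeq2's size factors, 3829 with its Wald test and 4182 with the block. All genes falling were 4054 of 18937 without a filter and 3603 of 10706 with a mean of at least 30 counts. They were 2215 of 12060 over 0, 1 and 2 h and 3404 of 11990 over 1, 2 and 4 h. Without replicate 1, 2 or 3, 3540 of 12057, 3468 of 12055 and 3682 of 11991 genes fell. With GAPDH plus ACTB scaling 21 HOX genes fell and 20 were lower at 4 h against 13, since that scaling moves all genes down. With it 7729 of all 12032 genes fell. No HOX gene rose or was higher at 4 h under any of these alternatives. Among slopes the block changed only the call of HOXC10. It also put HOXD4 off a straight line (1 gene in place of 0), added HOXB13 with HOXC13 (11 pairs in place of 10), and made HOXC4, HOXC10 and HOXD3 lower at 4 h (16 genes in place of 13). Over the intervals the genes lower with the block were 3 in place of 0 from 0 to 1 h, 11 in place of 4 from 1 to 2 h and 5 in place of 3 from 2 to 4 h. With GAPDH plus ACTB scaling these were 2, 6 and 11, and with library totals 5 from 2 to 4 h. Without 1 replicate they were 1 to 2 from 1 to 2 h and 1 to 3 from 2 to 4 h. Among these alternatives, shares of all genes over the intervals were computed for the block only, and for 4 h against 0 h for none. Without 1 replicate, 5 to 12 pairs differed. HOXD4 had slopes from −0.0690 to 0.0269 without 1 replicate, turning positive without replicate 1, and HOXB6 had a slope of 0.0461 over 0, 1 and 2 h, but neither gene passed the test with all libraries. Without a filter HOXD1, with at most 5 counts in a library, fell as well (−0.68, edgeR adjusted p = 0.0458), while HOXC4 and HOXD3 missed the threshold. Genes under about 30 counts (HOXC11, HOXC4, HOXA10, HOXA7 and HOXB6) are limited by depth.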

Other observations

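Among 35 tested chromatin regulators of the HOX clusters, which keep the clusters silent (Polycomb) or active (Trithorax), 20 fell and 3 rose in edgeR. That is 57.1% falling, against 32.1% falling and 30.7% rising among all genes tested. The median slope of the list was −0.06 log2 units per hour. Among the steepest falls were CBX8 (−0.85 ± 0.06, SE), a chromodomain subunit of Polycomb repressive complexes, CTCF (−0.49 ± 0.04), which sets boundaries inside HOX clusters, and JARID2 (−0.37 ± 0.03), a Polycomb cofactor. RBBP4 (0.05 ± 0.02), PHC1 (0.09 ± 0.02) and RBBP7 (0.09 ± 0.02) rose. The members of 1 complex had unlike slopes: EED stood at −0.33 ± 0.03, EZH2 at −0.10 ± 0.01 and SUZ12 at −0.08 ± 0.02.

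Of 8 tested genes of the retinoic acid pathway, a known inducer of HOX genes, the receptor genes RARA (−0.50 ± 0.05, SE), RXRA (−0.10 ± 0.02) and RXRB (−0.06 ± 0.02) fell and CRABP1, a retinoic acid binding protein, rose (0.15 ± 0.05), each past the edgeR threshold. RARG had a slope of −0.09 ± 0.06, which did not pass. The falling share of this list, 37.5%, was near the 32.1% of all genes tested, of which 30.7% rose.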
